A study of Rattus norvegicus with 25 samples.

Results

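Midn, Irs2 and Zfp189 are 3 genes of 28909 in a table of striatal read counts, and they were followed here across all 3 treatment arms. They were matched by symbol and were selected on measured values of these same libraries: their levels differed between the 2 trapidil doses while the level with levodopa alone lay between. Their differences between arms are therefore given as a description, without p-values. What the choice did not use is how the 3 genes varied between animals of 1 arm, which other genes followed them there, and how the pathways around them behaved. All 3 genes passed the filter on low counts, as did 14142 genes in all.

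The libraries came from the striatum on the lesioned side of 25 female Sprague Dawley rats. All animals carried a 6-OHDA lesion, in which the toxin 6-hydroxydopamine destroys dopamine neurons as a model of Parkinson's disease, and all received levodopa, the dopamine precursor used to treat it, at 6 mg/kg QD. There were 5 animals with levodopa alone, 10 that received trapidil at 7.5 mg/kg BID as well, and 10 that received trapidil at 15 mg/kg BID as well. Dosing lasted 14 days and tissue was taken on day 15, tied in the labels to dosing by 1 hour without saying on which side of it. Trapidil is a vasodilator that inhibits phosphodiesterases and antagonises PDGF, a growth factor of mesenchymal cells. Every arm carries the lesion and levodopa, so the comparisons concern trapidil added to levodopa and its dose; the age of the animals and the lesion's extent are not in the sources used here, and bulk tissue cannot tell fewer cells of a type from less RNA per cell.

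Total counts ran from 16535828 to 19274429 with levodopa alone, from 10838513 to 18794463 at 7.5 mg/kg and from 13862132 to 20532290 at 15 mg/kg. The lowest total was that of replicate 1 of the 7.5 mg/kg arm, in which mitochondrial genes took 8.43% of counts, the lowest share of that arm. Over all 25 libraries this share was lowest in levodopa replicate 1 (7.62%) and highest in levodopa replicate 2 (17.3%). Markers of striatal projection neurons were all tested (12 of 12) and abundant, with means of 4754 CPM (read counts scaled to a common library total) for Ppp1r1b and 4451 CPM for Penk over the 25 libraries. Their summed level was 9521 to 16882 CPM with levodopa alone, 13309 to 16891 CPM at 7.5 mg/kg and 12674 to 16401 CPM at 15 mg/kg. The cortical marker Slc17a7 averaged 7.17 CPM, with a range of 1.73 to 46.1 CPM. Oligodendrocyte markers moved with the arms: their summed level was 10537 to 19185 CPM with levodopa alone, 7283 to 15979 CPM at 7.5 mg/kg and 6443 to 13557 CPM at 15 mg/kg. Between the doses all 10 of them were lower at 15 mg/kg, 8 at an unadjusted p below 0.05 (302 of all 14142 tested genes) and 0 after adjustment with edgeR, DESeq2 or limma-voom. Against levodopa alone at 15 mg/kg, 6 of the 10 fell with edgeR, where 1.31% of all tested genes were called in either direction, and DESeq2 and limma-voom called 7 and 8 of them; their median log2 difference was -0.60. All 8 tested endothelial markers were also lower there at an unadjusted p below 0.05, with a median of -0.46, and edgeR, DESeq2 and limma-voom called 1, 6 and 1 of them. Of all tested genes, 19.5% had such a p there in either direction. At 7.5 mg/kg against levodopa alone, 6 of the 10 oligodendrocyte and 7 of the 8 endothelial markers were lower at an unadjusted p below 0.05, against 11.7% of all tested genes in either direction. EdgeR and DESeq2 called 0 of either list there and limma-voom 1 oligodendrocyte marker. Ependymal and choroid plexus markers mostly rose. Their median summed CPM were 4.71 (levodopa alone, range 2.02 to 52.8), 29.5 (lower dose, 5.03 to 76.3) and 42.8 (higher dose, 23.3 to 64.9). For the higher dose against levodopa alone 8 of 9 were higher (median log2 difference 1.17), 3 at an unadjusted p below 0.05. EdgeR called 1 lower, DESeq2 called 1 and limma-voom 3. There 5 of 10 microglial and 3 of 10 astrocyte markers were lower at that p, against 19.5% of all tested genes in either direction, and the 3 tools called 0. The part of these cell types in the results on Midn, Irs2 and Zfp189 was not tested, except in fits with the oligodendrocyte score or the cortical score as a covariate. The fit with the oligodendrocyte score is given with the differences between doses. That with the cortical score is among the alternative settings near the end.

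The 3 genes have different jobs. Midn encodes midnolin, a protein that brings nuclear proteins, products of immediate early genes among them, to the proteasome for breakdown without ubiquitin; its own transcript belongs to the genes induced quickly by stimulation. Irs2 encodes insulin receptor substrate 2, an adaptor that couples the insulin and IGF-1 receptors to PI3-kinase, and its gene is known as a target of the cAMP-responsive factor CREB and of FoxO factors. Zfp189 encodes a zinc finger transcription factor of the C2H2 type with a KRAB domain, a domain that recruits corepressors through Trim28. In the striatum, dopamine acting on D1 receptors raises cAMP and switches on immediate early genes, and phosphodiesterases end the cAMP signal.

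Because cAMP acts on transcription largely through the CREB site, the letters of promoters were searched for it. Promoter sequences, 250 bases before to 50 after an annotated start, came from RefSeq on the GRCr8 assembly; of the 3 genes, Midn had an entry. Its sequence is shown in full because it belongs to the gene with the smallest relative error between doses. It covers chr7:10206955-10207254 on the minus strand, and the start it is built on lies inside the gene's annotated span rather than at its end. No capitals are used because no searched motif was found in it.
Midn: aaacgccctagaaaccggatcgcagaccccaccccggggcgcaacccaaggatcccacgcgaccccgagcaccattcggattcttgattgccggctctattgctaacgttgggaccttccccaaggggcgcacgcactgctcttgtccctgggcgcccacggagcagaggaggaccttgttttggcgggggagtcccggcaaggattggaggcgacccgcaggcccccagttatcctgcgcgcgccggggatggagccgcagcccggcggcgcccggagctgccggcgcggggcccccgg
This window was 69.7% G or C, against a median of 51.7% over 33469 promoters of the same length, and 91.3% of promoters had a lower share. On both strands it held 0 matches to the full CRE TGACGTCA (in 1.83% of promoters), its half-site TGACG (21.2%; the full site contains it), the AP-1 site TGANTCA (7.33%), the E-box CACGTG (6.42%), the GC box GGGCGG (33.06%), the FOXO site GTAAACA (3.78%), the EGR site GCGTGGGCG (0.54%), the TATA box TATAAA (14.22%) or the CArG box (1.64%). A match is a run of letters and not a shown site of binding, and 0 matches concern this window alone.

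Of the 17 genes singled out later for sharing the pattern of 1 of the 3, or for being called with them, 14 had a promoter entry. Among these 14, 2 held a full CRE (1.83% of all promoters) and 6 at least a half-site (21.2% of all promoters). The genes were picked by values of these same libraries, and the difference from those shares was not tested. The 2 stretches with the full site are shown because both genes followed Irs2 closely across the libraries; the capitals mark the CRE. The Slc25a25 stretch is chr3:36116716-36116755 on the minus strand with the CRE starting 158 bases before the start site, and the Arl5b stretch is chr17:82864224-82864263 on the plus strand with the CRE starting 188 bases before it.
Slc25a25: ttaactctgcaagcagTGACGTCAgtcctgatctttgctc
Arl5b: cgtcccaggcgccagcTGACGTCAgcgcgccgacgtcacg

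Midn was highest at 15 mg/kg of trapidil and lowest at 7.5 mg/kg. With levodopa alone the 5 libraries had 95.0, 88.1, 78.3, 67.1 and 78.4 CPM of Midn. At 7.5 mg/kg the lowest, median and highest libraries had 61.9, 70.1 and 89.1 CPM. In the 15 mg/kg arm they had 87.2, 95.6 and 109 CPM. The dose arms overlapped through 1 library: replicate 1 of the 7.5 mg/kg arm, at 89.1 CPM, lay above the lowest 15 mg/kg libraries, and 8 of 10 libraries at 15 mg/kg lay above every library at 7.5 mg/kg. Means were 81.4 ± 10.6 CPM with levodopa alone (SD, n = 5), 71.1 ± 7.87 CPM at 7.5 mg/kg (SD, n = 10) and 97.4 ± 7.96 CPM at 15 mg/kg (SD, n = 10). These values rest on 963 to 2202 reads of Midn in each library.

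Irs2 had the same order of arms with a wider spread. With levodopa alone its libraries had 121, 87.8, 117, 89.9 and 95.4 CPM. The lowest, median and highest libraries had 69.2, 78.7 and 114 CPM at 7.5 mg/kg, and 99.4, 124 and 156 CPM at 15 mg/kg. Again replicate 1 was the highest library of the 7.5 mg/kg arm and the 1 library of that arm above the lowest of the 15 mg/kg arm, while 7 of 10 libraries at 15 mg/kg lay above every library at 7.5 mg/kg. Irs2 averaged 102 ± 15.7 CPM with levodopa alone (SD, n = 5), 84.1 ± 14.7 CPM at 7.5 mg/kg (SD, n = 10) and 126 ± 18.0 CPM at 15 mg/kg (SD, n = 10).

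For Zfp189 the mean with levodopa alone stood close to that at 7.5 mg/kg, where for Midn and Irs2 it stood nearer the middle; this difference between genes was not tested. Its libraries with levodopa alone had 31.3, 25.4, 40.2, 47.0 and 34.9 CPM, the widest relative spread of any gene and arm here, with a coefficient of variation of 23.1%. The lowest, median and highest libraries had 28.5, 33.5 and 38.1 CPM at 7.5 mg/kg, and 33.1, 51.8 and 61.9 CPM at 15 mg/kg. In the 15 mg/kg arm, 9 of 10 libraries lay above every library at 7.5 mg/kg; the exception was replicate 10, at 33.1 CPM, below 5 libraries of the 7.5 mg/kg arm. Replicate 1 of the 7.5 mg/kg arm, the highest of its arm for Midn and Irs2, had 28.9 CPM of Zfp189, near the bottom of that arm. Zfp189 averaged 35.8 ± 8.28 CPM with levodopa alone (SD, n = 5), 33.2 ± 3.48 CPM at 7.5 mg/kg (SD, n = 10) and 49.4 ± 8.52 CPM at 15 mg/kg (SD, n = 10).

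**Figure D1:**
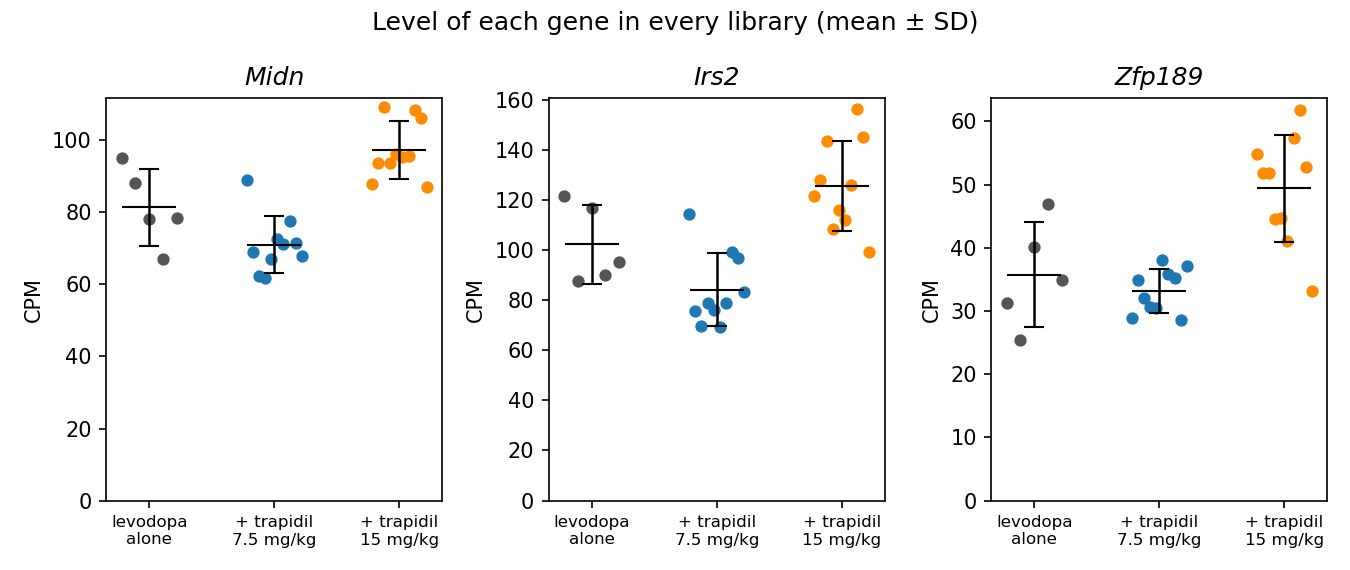
CPM (y axis, from 0) of Midn, Irs2 and Zfp189 in every library, by arm along the x axis from levodopa alone to 15 mg/kg of trapidil; points are libraries and bars are mean ± SD (n = 5, 10 and 10). The mean of the 15 mg/kg arm is the highest for all 3 genes, its libraries overlap with those of levodopa alone, and the single high point of the 7.5 mg/kg arm for Midn (89.1 CPM) and Irs2 (114 CPM) is replicate 1.

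Between the doses, Midn was 0.46 ± 0.06 higher at 15 mg/kg than at 7.5 mg/kg on the log2 scale (± SE), a fold of 1.37. Irs2 was 0.58 ± 0.09 higher (1.49-fold) and Zfp189 0.57 ± 0.10 higher (1.49-fold). The median gene of the 14142 tested moved by 0.057 in either direction. In edgeR's fit to all 25 libraries, 4 genes were called higher at 15 mg/kg at an adjusted p below 0.05, which is 0.0283% of those tested, and 0 were called lower (211 and 302 genes at an unadjusted p below 0.05). Midn, Irs2 and Zfp189 were 3 of these 4; since they were picked for this difference, the count adds nothing to it. DESeq2 called 6 genes and limma-voom 13 (12 higher and 1 lower), the 3 genes included in both. With the oligodendrocyte marker score in the design the differences were 0.49 ± 0.07 for Midn, 0.57 ± 0.10 for Irs2 and 0.54 ± 0.11 for Zfp189, and Zfp189 was no longer called.

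The other gene called between the doses was Per1, a light- and cAMP-responsive repressor of the circadian clock. Per1 averaged 159 ± 18.0 CPM at 15 mg/kg, against 118 ± 9.67 CPM at 7.5 mg/kg (SD, n = 10 each), a log2 difference of 0.44 ± 0.07 (edgeR adjusted p = 0.00512), and it was called in 25 of 25 fits that each left out 1 library. With levodopa alone it averaged 118 ± 19.2 CPM (SD, n = 5), level with 7.5 mg/kg as Zfp189 nearly was. Just outside the threshold stood Fosb, a component of the transcription factor AP-1, with 62.0 ± 16.1 CPM at 15 mg/kg, against 34.3 ± 7.57 CPM at 7.5 mg/kg, a log2 difference of 0.85 ± 0.17 (edgeR adjusted p = 0.0728). Next came Slc25a25, a mitochondrial carrier of ATP-magnesium and phosphate, with 163 ± 19.6 CPM at 15 mg/kg, against 124 ± 15.0 CPM at 7.5 mg/kg, a log2 difference of 0.39 ± 0.08 (edgeR adjusted p = 0.107). Without replicate 1 of the 7.5 mg/kg arm 8 genes were called, the 4 above with Tiparp, Nr4a1, Slc25a25 and Sik1, and the differences were 0.50 ± 0.06 for Midn, 0.64 ± 0.09 for Irs2 and 0.55 ± 0.10 for Zfp189.

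No gene of the 14142 had every 15 mg/kg library above every 7.5 mg/kg library (0%), so full separation of the doses was not seen for Midn, Irs2 or Zfp189 either. The order that led to the choice, with the levodopa mean between the dose means and 15 mg/kg highest, held for 1114 genes, 7.88% of those tested.

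Against levodopa alone the 3 genes had differences of opposite sign at the 2 doses, which the choice of genes with the levodopa level between the doses had already set. At 7.5 mg/kg the log2 differences were -0.20 ± 0.08 for Midn, -0.28 ± 0.11 for Irs2 and -0.11 ± 0.12 for Zfp189 (± SE). At 15 mg/kg they were 0.26 ± 0.08 for Midn, 0.30 ± 0.11 for Irs2 and 0.46 ± 0.12 for Zfp189. In each of the 3 genes the ranges of both dose arms overlapped that of levodopa alone. At 15 mg/kg, 10 of 10 libraries for Midn and 9 of 10 for Irs2 and for Zfp189 lay above the levodopa mean; at 7.5 mg/kg, 9, 9 and 7 of 10 lay below it. The 2 contrasts share the levodopa libraries and are not independent.

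With edgeR, 0 of the 3 genes were called at 7.5 mg/kg, where 4 genes were called in all (0.0283%), and 0 of the 3 at 15 mg/kg, where 185 were (1.31%). At an unadjusted p below 0.05 the counts were 2 of 3 at 7.5 mg/kg, against 11.7% of all genes tested, and 3 of 3 at 15 mg/kg, against 19.5%. DESeq2 and limma-voom each called 0 of the 3 at 7.5 mg/kg, where they called 53 (0.415%) and 102 (0.721%) genes in all. At 15 mg/kg each called 2 of the 3, Midn and Zfp189, beside 655 (4.82%) and 715 (5.06%) genes in all. The 3 genes were selected on their levels in these same arms, levodopa alone included, so these counts add nothing to the differences. The counts over all genes moved with single libraries: they ran from 1 without levodopa replicate 3 to 70 without 7.5 mg/kg replicate 1 for the lower dose, and from 9 without levodopa replicate 3 to 894 without levodopa replicate 4 for the higher. So did the differences: the Zfp189 difference at 7.5 mg/kg was 0.01 ± 0.12 without levodopa replicate 4, the library with the highest Zfp189, and -0.21 ± 0.12 without replicate 2, the one with the lowest. The Zfp189 difference at 15 mg/kg was 0.58 ± 0.13 without replicate 4 and 0.37 ± 0.12 without replicate 2.

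**Figure D2:**
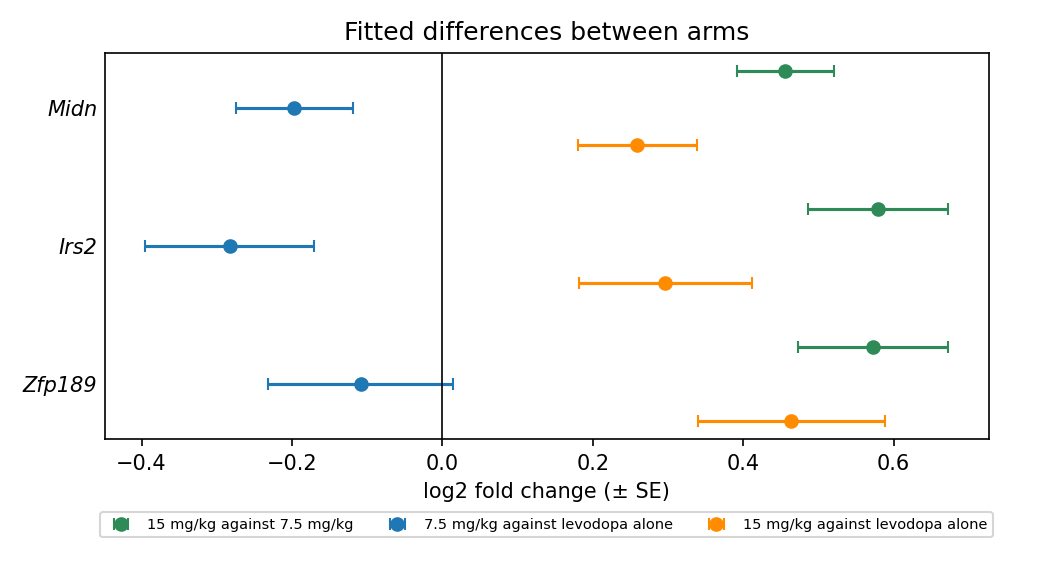
Log2 fold change (x axis, points) with its standard error (bars) for Midn, Irs2 and Zfp189 in the 3 comparisons, from edgeR's fit to 25 libraries. The doses differ by 0.46 to 0.58, while the differences from levodopa alone fall on opposite sides of 0, as the choice of genes had set. The Zfp189 bar at 7.5 mg/kg does not exclude 0 by more than its standard error.

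Within an arm all animals had the same treatment, so the spread among them was not part of the choice. In the 15 mg/kg arm, Midn and Irs2 varied together over the 10 libraries (Pearson r = 0.85, permutation p = 0.00242, adjusted over 6 relations p = 0.00726; Spearman rho = 0.77, permutation p = 0.0135). Irs2 and Zfp189 also varied together (r = 0.85, permutation p = 0.00136, adjusted p = 0.00726; rho = 0.81, permutation p = 0.00709). For Midn and Zfp189 the relation did not pass (r = 0.55, permutation p = 0.0943, adjusted p = 0.141; rho = 0.50, permutation p = 0.143). In that arm replicate 10 had the lowest level of all 3 genes, and replicate 8 had the highest Irs2 and Zfp189 and the second-highest Midn. The 2 libraries farthest from the median of the first gene of a pair were replicates 3 and 8 for Midn, and 8 and 10 for Irs2 with Zfp189. Without them r was 0.73 for Midn with Irs2, 0.67 for Irs2 with Zfp189 and 0.40 for Midn with Zfp189 (permutation p = 0.0393, 0.0756 and 0.327). None passed after adjustment (adjusted permutation p = 0.184, 0.184 and 0.392).

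At 7.5 mg/kg, Midn varied with Irs2 by Pearson r but not by rank, and no relation of Zfp189 passed. Midn with Irs2 had r = 0.78 over 10 libraries (permutation p = 0.00714, adjusted p = 0.0143), but rho was 0.52 (permutation p = 0.134), and without replicates 1 and 4 r was 0.63 (adjusted permutation p = 0.184). Zfp189 with Irs2 had r = -0.46 (permutation p = 0.174, adjusted p = 0.209; rho = -0.37, permutation p = 0.295), and -0.47 without replicates 1 and 8. Zfp189 with Midn had r = -0.11 (permutation p = 0.782, also after adjustment; rho = 0.05, permutation p = 0.893), and 0.29 without replicates 1 and 4. Whether the relation of Zfp189 to Irs2 differed between the doses was not tested.

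Each gene was also set against total counts within the dose arms, and no relation passed after adjustment. Over the 10 libraries at 7.5 mg/kg, r was -0.70 for Midn (permutation p = 0.0442, adjusted over 6 relations p = 0.133; rho = -0.21, permutation p = 0.557), -0.73 for Irs2 (permutation p = 0.0170, adjusted p = 0.102; rho = -0.72, permutation p = 0.0234) and 0.34 for Zfp189 (permutation p = 0.383, adjusted p = 0.643; rho = 0.14, permutation p = 0.707). Without replicates 1 and 3, the libraries farthest from the median total, r was 0.43, -0.11 and -0.02, so the relation rested on them. For the 15 mg/kg arm r was 0.10, -0.13 and -0.29 (adjusted permutation p = 0.769, 0.769 and 0.643). With the log2 total count in the design, an alternative added after seeing the data, the differences between the doses were 0.50 ± 0.07 for Midn, 0.67 ± 0.09 for Irs2 and 0.57 ± 0.11 for Zfp189.

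**Figure D3:**
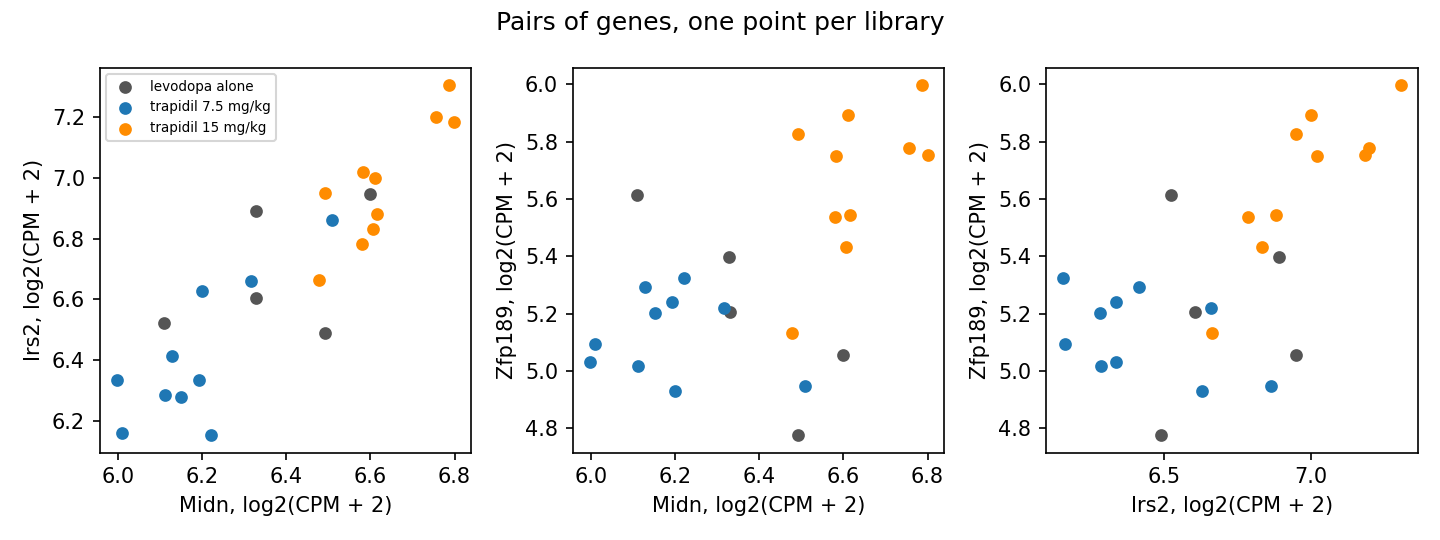
Log2(CPM + 2) of each pair of genes, 1 point per library, coloured by arm. Midn rises with Irs2 within the 15 mg/kg points (r = 0.85). Within the 7.5 mg/kg points r is 0.78, but Spearman rho is 0.52 and did not pass (permutation p = 0.134). Zfp189 rises with Irs2 within the 15 mg/kg points (r = 0.85) and not within the 7.5 mg/kg points (r = -0.46).

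The genes whose pattern was most like each of the 3 were ranked by Pearson r of log2 CPM among 12292 genes with a mean of at least 1 CPM. Over the 25 libraries as they stand, which includes the arm differences used in the choice, Midn was most like Irs2 (r = 0.90), Slc25a25 (0.85), Sik1 (0.78), a kinase of the salt-inducible family and a known CREB target, and Tiparp (0.77), a mono-ADP-ribosyltransferase. Irs2 was most like Slc25a25 (0.91), Midn (0.90), the Arf-like GTPase gene Arl5b (0.87) and Fosb (0.87). Zfp189 had another set: Errfi1 (0.85), a feedback inhibitor of the EGF receptor family, Per1 (0.78), the small GTPase gene Rasl11b (0.72) and the homeobox gene Dlx5 (0.70).

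With each arm's mean subtracted, r between Midn and Irs2 over the 25 libraries was 0.72, between Irs2 and Zfp189 0.25 and between Midn and Zfp189 -0.11. Midn then stood closest to Slc25a25 (0.75), the phosphatidylserine synthase gene Ptdss1 (0.74), the deubiquitinase gene Otud5 (0.73) and Irs2 (0.72). Without replicate 1 of the 7.5 mg/kg arm these were 0.70, 0.63, 0.65 and 0.63. Irs2 stood closest to Slc25a25 (0.85), the pyridoxal kinase gene Pdxk (0.85) and the activity-induced factors Nr4a1 (0.85) and Egr2 (0.83), and without that replicate these were 0.83, 0.81, 0.80 and 0.77.

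Zfp189 stood closest to Errfi1 (0.88), the MAP kinase kinase gene Map2k6 (0.74), the pyruvate dehydrogenase component gene Pdhx (0.70) and the receptor gene Lrp12 (0.70). In the dose arms taken alone r with Errfi1 was 0.96 at 15 mg/kg and 0.84 at 7.5 mg/kg, and it was 0.88 without replicate 1 of the 7.5 mg/kg arm; these libraries are among those that ranked Errfi1 first, so the values describe the relation and do not test it. Errfi1 itself averaged 62.6 CPM at 15 mg/kg, against 55.1 CPM at 7.5 mg/kg, a log2 difference of 0.18 ± 0.07 that did not pass. These correlations describe 25 libraries that share depth and tissue composition within each library.

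Immediate early genes had a higher median correlation with Midn and Irs2 than with Zfp189 at 7.5 mg/kg but not at 15 mg/kg; no difference between the 3 genes or between the doses was tested. With arm means subtracted, the median r over 26 immediate early transcription factor genes was 0.46 with Midn, 0.47 with Irs2 and -0.07 with Zfp189, beside medians of -0.01, 0.00 and -0.01 over all genes. An r above 0.5 was reached by 8, 11 and 0 of the 26, against 2.25%, 3.03% and 4.04% of all genes. Without replicate 1 of the 7.5 mg/kg arm the medians were 0.32, 0.33 and 0.04, and the counts above 0.5 were 3, 10 and 0, against 0.716%, 4.59% and 4.91% of all genes. Within the 7.5 mg/kg arm the medians were 0.62 with Midn, 0.59 with Irs2 and -0.33 with Zfp189, with 17, 18 and 0 of the 26 above 0.5, against 15.7%, 12.1% and 6.27% of all genes. Replicate 1, the highest of that arm for Midn and Irs2 and low for Zfp189, is among these libraries. Whether the medians of that arm rest on it was not tested. Within the 15 mg/kg arm they were 0.32, 0.31 and 0.36, with 9, 11 and 11 above 0.5, against 9.45%, 14.2% and 12.6% of all genes. Over 34 cAMP and CREB target genes the medians over the 25 libraries were 0.14, 0.39 and 0.15. Over 45 genes of insulin and IGF signalling, 32 proteasome genes and 23 FoxO genes they lay between -0.06 and 0.09 for all 3 genes. Within the 7.5 mg/kg arm cAMP and CREB medians were 0.14, 0.39 and -0.24, and insulin and IGF medians 0.17, 0.34 and -0.17. Proteasome medians there were -0.33, -0.38 and 0.04, and FoxO medians 0.07, 0.10 and -0.04. At 15 mg/kg cAMP and CREB medians were 0.29, 0.44 and 0.45, and insulin and IGF medians -0.06, 0.00 and 0.06. Proteasome medians at that dose were 0.13, -0.06 and -0.24, and FoxO medians -0.01, 0.03 and -0.12.

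**Figure D4:**
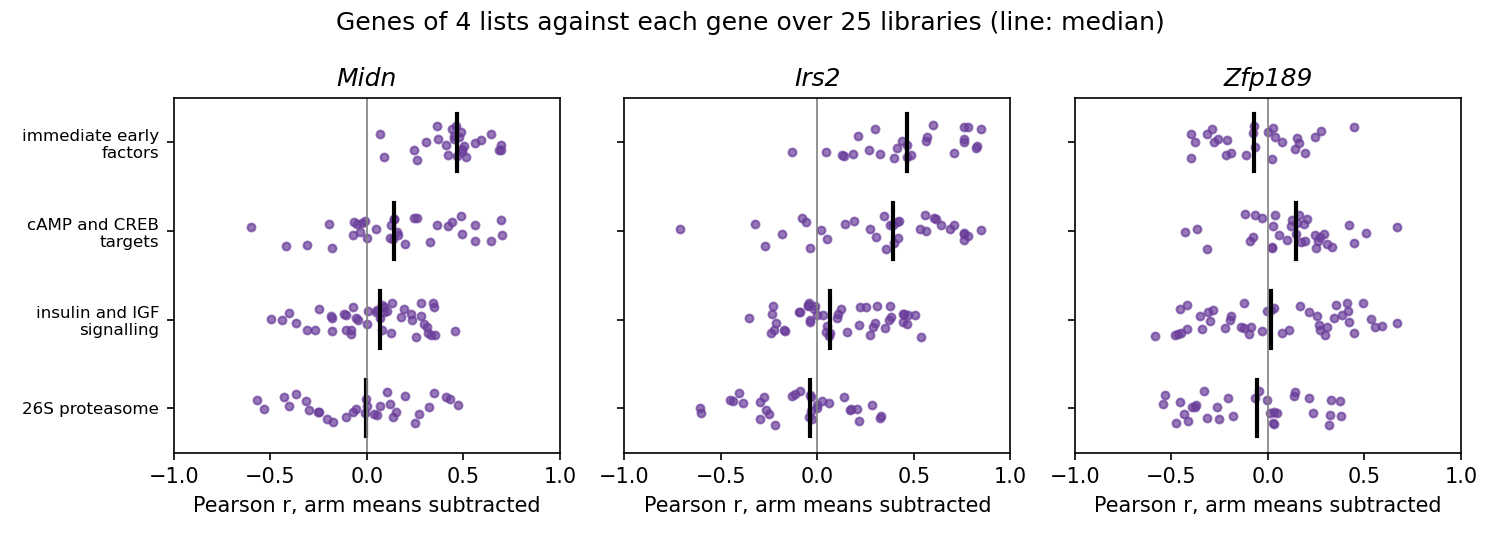
Pearson r (x axis) of each gene of 4 lists with Midn, Irs2 and Zfp189 over 25 libraries after subtracting arm means; points are genes, spread vertically for legibility, and black lines are list medians. For immediate early factors the medians are 0.46 with Midn, 0.47 with Irs2 and -0.07 with Zfp189.

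Of the 27 immediate early genes tested, none passed between the doses with edgeR, where 0.0283% of all tested genes did. The highest mean was that with levodopa alone for 18 of them, at 7.5 mg/kg for 2 and at 15 mg/kg for 7. The median log2 difference between the doses was 0.07, against 0.00 over all genes, at an unadjusted p below 0.05 the counts were 9 higher (1.49% of all tested genes) and 0 lower, and DESeq2 and limma-voom called 1 and 2. Nr4a1 averaged 196 ± 36.8 CPM at 15 mg/kg, against 123 ± 47.0 CPM at 7.5 mg/kg (SD, n = 10 each), a log2 difference of 0.68 ± 0.17 (edgeR adjusted p = 0.460), but 218 ± 71.9 CPM with levodopa alone (SD, n = 5). Egr1 averaged 356 ± 68.9 CPM at 15 mg/kg, against 269 ± 54.2 CPM at 7.5 mg/kg, and 426 ± 143 CPM with levodopa alone. Fosb was among those highest at 15 mg/kg, with 62.0 CPM there, against 40.5 CPM with levodopa alone.

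Against levodopa alone, Btg2 of the immediate early list, at 7.5 mg/kg, fell by 1.33 ± 0.25 on the log2 scale (edgeR adjusted p = 0.0428), and 0 of the 27 rose. DESeq2 called 8 and limma-voom 13 of the 27 there, and 14 were lower and 0 higher at an unadjusted p below 0.05, against 11.7% of all genes in either direction. Btg2 was called there in 6 of 25 fits that each left out 1 library, with values of -1.62 to -1.13. In the 15 mg/kg arm 3 fell and 0 rose: Jun fell by 1.32 ± 0.22 (edgeR adjusted p = 0.00751), Btg2 fell by 1.39 ± 0.25 (edgeR adjusted p = 0.0106) and Csrnp1 fell by 0.61 ± 0.13 (edgeR adjusted p = 0.0217). At this dose DESeq2 called 5 and limma-voom 10, and 11 were lower and 2 higher at an unadjusted p below 0.05, against 19.5% of all genes in either direction. Without levodopa replicate 3 none of these 3 was called, and Csrnp1 was also not called without levodopa replicate 2. The median log2 difference of the list was -0.55 at 7.5 mg/kg and -0.28 at 15 mg/kg.

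Of 35 tested cAMP and CREB target genes, a list that shares Fosb, Nr4a1, Egr1 and others with the immediate early genes, 1 rose between the doses (Per1) and 0 fell with edgeR, with a median of 0.11. Over all tested genes 0.0283% rose with edgeR. At an unadjusted p below 0.05 the counts were 7 higher (1.49% of all tested genes) and 0 lower, and DESeq2 and limma-voom called 2 and 4. The CREB gene itself, Creb1, averaged 4.62 CPM at 15 mg/kg, against 4.98 CPM at 7.5 mg/kg, a log2 difference of -0.10 ± 0.11. Crem, which encodes a related cAMP-responsive factor, averaged 14.2 CPM at 15 mg/kg, against 14.0 CPM at 7.5 mg/kg, a difference of 0.02 ± 0.07. Against levodopa alone, Per1 rose by 0.44 ± 0.09 at 15 mg/kg and Per2 by 0.52 ± 0.10 (edgeR adjusted p = 0.0217 for each); neither was called without levodopa replicate 2 or 3, with lowest values of 0.36 for Per1 and 0.49 for Per2. These were the 2 genes of the list that edgeR called at 15 mg/kg, where DESeq2 called 3 and limma-voom 7; at 7.5 mg/kg the 3 tools called 0, 4 and 8.

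The pathway in which Irs2 acts gave no gene past the threshold between the doses with edgeR, DESeq2 or limma-voom: 0 of 46 tested genes of insulin and IGF signalling, with a median log2 difference of 0.01 and 1 gene at an unadjusted p below 0.05. That gene was Igfbp4, an IGF-binding protein, with 19.0 CPM at 15 mg/kg, against 16.6 CPM at 7.5 mg/kg, a difference of 0.20 ± 0.08. The sister adaptor Irs1 had 7.59 ± 1.16 CPM at 15 mg/kg, against 8.62 ± 1.54 CPM at 7.5 mg/kg, a difference of -0.18 ± 0.10 (edgeR adjusted p = 0.999). The receptors upstream differed by 0.01 ± 0.07 for Insr and 0.06 ± 0.10 for Igf1r, both with an edgeR adjusted p of 0.999. Against levodopa alone Igfbp4 rose at 15 mg/kg, by 0.38 ± 0.10 (edgeR adjusted p = 0.0487), and was the 1 gene of the list that passed there with edgeR (1 with DESeq2 and 2 with limma-voom); it was called in 7 of 25 fits that each left out 1 library, with values of 0.33 to 0.41.

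FoxO factors, which insulin signalling restrains and which act on the Irs2 gene, also gave 0 of 23 between the doses with the 3 tools, with 2 genes at an unadjusted p below 0.05, the cell cycle inhibitor Cdkn1a (0.35 ± 0.15) and the kinase Pdk4 (0.59 ± 0.26). Over all tested genes 0.0283% were called with edgeR and 1.49% were higher at that unadjusted p, so 0 of 23 says little about this list. Foxo1 averaged 89.6 ± 10.5 CPM at 15 mg/kg, against 79.0 ± 12.6 CPM at 7.5 mg/kg, a difference of 0.18 ± 0.11 (edgeR adjusted p = 0.999), and Foxo3 differed by -0.00 ± 0.09. Against levodopa alone, the muscle-atrophy ubiquitin ligase gene Fbxo32, at 15 mg/kg, fell by 0.33 ± 0.08 (edgeR adjusted p = 0.0383), the 1 gene of the list that passed with edgeR, where DESeq2 and limma-voom called 2 each; it was called in 15 of 25 such fits, with values of -0.36 to -0.26. With the replicate number as a block, 0 genes were called against levodopa alone at either dose.

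Of 32 tested subunit genes of the proteasome, to which midnolin delivers its substrates, 0 passed between the doses with edgeR, DESeq2 or limma-voom. At an unadjusted p below 0.05 the count was 0, and log2 differences ran from -0.05 to 0.07. Over all 14142 tested genes edgeR called 0.0283%, and 211 were higher and 302 lower at that unadjusted p, so counts of 0 in a list of this size say little about the proteasome. The ubiquitin-receptor subunit Psmd4 averaged 72.2 ± 4.95 CPM at 15 mg/kg, against 72.3 ± 8.07 CPM at 7.5 mg/kg. The corepressors of KRAB zinc finger proteins gave 0 of 22 with the 3 tools and 1 gene at an unadjusted p below 0.05, Uhrf1 (0.40 ± 0.15). Beside the same shares over all genes these counts say little about the list. Trim28 averaged 144 ± 4.79 CPM at 15 mg/kg, against 144 ± 6.11 CPM at 7.5 mg/kg, a difference of 0.00 ± 0.04.

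Among 213 other tested genes with a Zfp symbol, 0 passed between the doses with the 3 tools, 2 were higher and 6 were lower with unadjusted p under 0.05, and the median was -0.03. Over all 14142 tested genes edgeR called 4 (0.0283%), and 211 were higher and 302 lower at that unadjusted p, so 0 of 213 says little about the family. Zfp189 had the second-largest log2 difference of the 214, but it was picked for this difference, so the rank adds nothing to it. The 1 gene above it, Zfp819 (0.59 ± 0.20), was at 1.92 CPM at 15 mg/kg, against 1.27 CPM at 7.5 mg/kg, and was named after its values were seen. Among the 213 other genes the smallest p belonged to Zfp618 (-0.39 ± 0.12, edgeR adjusted p = 0.999).

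The genes next to the 3 on the GRCr8 assembly, also chosen after their values were seen, were looked at because reads of neighbours can be counted to the wrong gene. No annotated gene overlapped Midn, Irs2 or Zfp189. Beside Midn, Cirbp differed between the doses by 0.09 ± 0.07 and Atp5f1d by 0.05 ± 0.05; beside Irs2, Col4a1 by 0.01 ± 0.08 and Myo16 by 0.02 ± 0.09; beside Zfp189, Mrpl50 by -0.11 ± 0.05. These 5 genes had an edgeR adjusted p of 0.999.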

How the data were processed

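PolyA RNA of 25 striata, 1 library per animal as the labels describe the design, was sequenced. Raw counts for 28909 gene names were deposited by the authors in 1 table, made with FastQC, STAR and HTSeq on Rnor_6.0, per the submitters' processing notes; versions, annotation and strand setting are not given in the sources used here. Reads of overlapping or antisense genes therefore cannot be told apart. In 9462 lines every count was 0. Arms were read from the labels. Where nothing states separate animals library by library, p-values measure only the spread between these samples. No 2 libraries of an arm agreed within sampling noise (lowest chi-square per degree of freedom 12.0 with levodopa alone, 4.92 at 7.5 mg/kg and 4.83 at 15 mg/kg, over genes with at least 20 reads).

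Midn, Irs2 and Zfp189, the gene lists and the tests were chosen with earlier results of these data known. Genes were filtered with filterByExpr (14142 kept), scaled by TMM and fitted with edgeR 4.0.16 in R 4.3.3 (glmQLFit and glmQLFTest, arm as the 1 factor, all 25 libraries, common biological coefficient of variation 0.139), two-sided; p-values were adjusted by Benjamini-Hochberg across the tested genes (threshold 0.05), and adjusted p-values of genes come from that fit. Each standard error is the log2 fold change divided by the root of its quasi-likelihood F. CPM use TMM-scaled library sizes and are not per gene length, so levels of different genes are not compared; precision is limited by the counts and by 5 to 10 libraries per arm. Correlations used log2(CPM + 2) and two-sided permutation tests with 100000 resamples. DESeq2 1.42.0 and limma 3.58.1 (voom with quality weights) were alternatives. The steps were tested on simulated data. Named genes were the 3 genes; for each, the 4 most alike over 25 libraries and the 4 most alike with arm means subtracted; genes called between doses; per list up to 4 called genes or the one with the smallest p; and Irs1, Insr, Igf1r, Foxo1, Foxo3, Trim28, Psmd4, Creb1, Crem, Egr1, Fosb and Nr4a1. Others were chosen after their values were seen. No batch or date is given in the sources used here.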

Additional observations from a re-analysis of the deposited data

How the results depend on the processing

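Alternatives for the 3 log2 differences between the doses are refits of the values on which the genes were selected, so they show what a setting changes and do not support the differences. Their direction was the same under every alternative run (normalization, filter, tool, arms in the fit, covariates, libraries left out), and each gene was called in each, except Zfp189 with the replicate block (0.56 ± 0.11) and with the oligodendrocyte score (0.54 ± 0.11). Leaving out each of 25 libraries in turn gave 0.44 to 0.50 for Midn, 0.54 to 0.64 for Irs2 and 0.53 to 0.62 for Zfp189. The number of genes called between the doses was 4 in most settings, but 13 with limma-voom, 9 without levodopa replicate 2 and 7.5 mg/kg replicate 1, 10 without 7.5 mg/kg replicates 1 and 6, 9 with the total count in the design, and 4 to 8 when 1 library was left out (8 without 7.5 mg/kg replicate 1).

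Counts against levodopa alone are unstable, and the cause was not tested. At 7.5 mg/kg they were 4 as reported, 7 without a filter, 53 with DESeq2, 102 with limma-voom, 1 with the 2 arms alone, 0 with the replicate block, 12 with the cortical score, 88 with the mitochondrial share, 27 without levodopa replicate 2 and 7.5 mg/kg replicate 1, 443 without 7.5 mg/kg replicates 1 and 6, and 30 with the total count, with 1 (without levodopa replicate 3) to 70 (without 7.5 mg/kg replicate 1) over single libraries. At 15 mg/kg they were 185 as reported, 655 with DESeq2, 715 with limma-voom, 448 with the 2 arms alone, 0 with the replicate block, 684 with the mitochondrial share, 8 with the oligodendrocyte score, 76 without levodopa replicate 2 and 7.5 mg/kg replicate 1, and 944 without 7.5 mg/kg replicates 1 and 6, with 9 (without levodopa replicate 3) to 894 (without levodopa replicate 4) over single libraries. Zfp189 at 15 mg/kg was called in 5 of those 25 fits and Midn in 1. The same replicate numbers did not pair the samples: over 10 pairs of the doses the correlation of deviations ran from -0.22 to 0.17, with 3 above 0.1, and 2 libraries correlated best with their own number.

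The count of cAMP and CREB target genes called between the doses was 1, but 2 at a threshold of 0.1 and 3 without 7.5 mg/kg replicates 1 and 6; that of immediate early genes was 0, but 1 under each of these. Without the 2 libraries farthest from the median, r lost its call for Midn with Irs2 (0.73 at 15 mg/kg, 0.63 at 7.5 mg/kg) and Irs2 with Zfp189 at 15 mg/kg (0.67), and changed sign for Midn with Zfp189 at 7.5 mg/kg (0.29). Fewer libraries (8) entered those tests. Against levodopa alone the 3 genes kept their direction under each alternative run, except Zfp189 at 7.5 mg/kg without levodopa replicate 4 (0.01). The choice of the genes used the levodopa level as well, so these refits do not support that direction either. The 3 genes had 315 or more reads in each library. The part of depth in their differences was not tested apart from the relations with total counts and the fit with the total count. The 5 libraries of levodopa alone limit the precision of both comparisons with that arm.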

Other observations

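Junb, a partner in AP-1, averaged 218 CPM at 15 mg/kg, against 151 CPM at 7.5 mg/kg, a log2 difference of 0.53 ± 0.20, and 302 CPM with levodopa alone. Nr4a3, an orphan nuclear receptor gene induced by cAMP, averaged 35.5 CPM at 15 mg/kg, against 23.4 CPM at 7.5 mg/kg, a difference of 0.60 ± 0.17, and 20.1 CPM with levodopa alone. Neither passed the edgeR test between the doses (adjusted p = 0.999 for Junb and 0.907 for Nr4a3), and both were named after their values were seen.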
